A study of Mus musculus with 6 samples.

Results

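Ppp3ca encodes the alpha isoform of the catalytic subunit of calcineurin. Its transcript is 1 of 516 genes in a table that compares ovulated mouse eggs with and without the kinase MTOR. The row was chosen by its gene name, after results of this table were known. The table itself holds genes that the authors picked because their log2 fold between these libraries was beyond 1 in size, with a p-value under 0.01. The difference in Ppp3ca between genotypes is therefore given as a description, with no test.

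The eggs were metaphase II oocytes of C57BL/6 mice labelled post natal day 24. Mice were given 5 IU of PMSG at an age of 22 days and 5 IU of hCG 48 h later, and eggs were taken from the oviduct 14 h after hCG. The first group was Mtor CKO (n = 3 libraries), a conditional knockout in which Zp3-Cre removes Mtor from oocytes. The Zp3 promoter belongs to an egg coat gene and drives Cre in growing oocytes. The other was labelled wild type (WT, n = 3 libraries), and the labels do not say whether those mice carried a floxed allele. Each library came from 5 eggs, and nothing in the labels ties a library to a mouse, so the spread between libraries may be partly technical.

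Calcineurin is a serine/threonine phosphatase made of a catalytic A subunit and a calcium-binding B subunit. A rise in cytoplasmic calcium loads calmodulin, which binds the A subunit and lifts an autoinhibitory segment off the active site. Vertebrates have several A subunit genes, of which Ppp3ca and Ppp3cb are widely expressed and Ppp3cc is known mainly from testis. In Xenopus egg extracts, calcineurin is activated briefly by the calcium signal of fertilisation and acts in the exit from metaphase arrest. In Drosophila, the calcineurin regulator Sarah is needed for egg activation.

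Ppp3ca (ENSMUSG00000028161) lies on the plus strand of chromosome 3 at 136670124 to 136937727 (mm10), and the interval of its row coincides with the annotated gene. No other protein-coding gene lies inside that interval. The 3 other annotated genes there are Gm42822, 4930599N24Rik and the miRNA gene Gm44327. The row combines 7 annotated transcripts with 3 that the authors assembled from the reads. In the GENCODE M21 annotation, 2 transcripts of the gene are protein-coding. Ppp3ca-201 has 14 exons and 2194 nucleotides, with a coding sequence of 1563 nucleotides, and Ppp3ca-202 has 13 exons and 4758 nucleotides, with a coding sequence of 1533 nucleotides.

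The coding sequences differ by exon 13 of Ppp3ca-201, a cassette of 30 nucleotides at chr3:136932011-136932040 on the plus strand (GRCm38). The junction is shown because each FPKM value given here (fragments corrected for transcript length and library size) covers the row as a whole. Such a value does not separate forms with and without this exon. The sequences below are from the GENCODE transcripts, with the cassette in capitals and 30 bases of coding sequence on each side.
Ppp3ca-201: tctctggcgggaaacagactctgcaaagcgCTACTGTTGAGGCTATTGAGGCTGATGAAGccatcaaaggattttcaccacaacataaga
Ppp3ca-202: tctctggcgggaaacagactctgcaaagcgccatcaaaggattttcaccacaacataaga
The table gives no value per transcript, so which form differed between the genotypes was not measured here. The untranslated parts differ more than the coding parts. They hold 74 nucleotides before and 557 after the coding sequence in Ppp3ca-201, against 720 and 2505 in Ppp3ca-202. FPKM divides by transcript length, so the value also depends on how reads were assigned to the long and the short form, which was not tested.

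**Figure D1:**
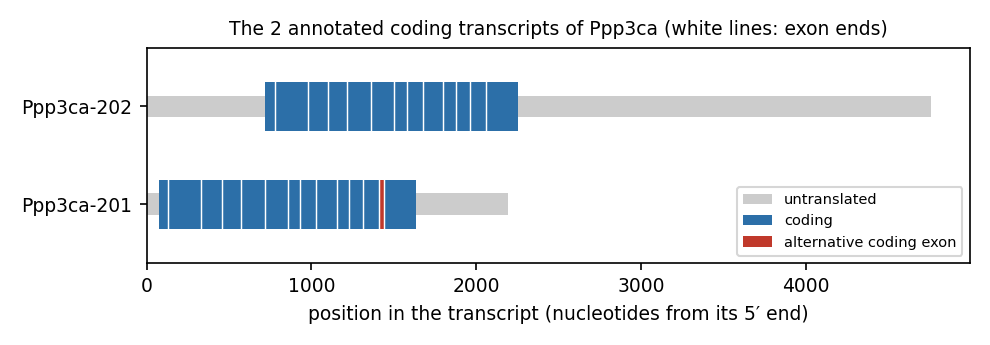
The 2 annotated coding transcripts of Ppp3ca, drawn to scale along the transcript in nucleotides from the 5′ end. Blue is coding sequence, grey is untranslated sequence, white lines are exon ends, and red is the cassette of 30 nucleotides present in Ppp3ca-201.

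The other A subunit genes differ from Ppp3ca in sequence along their length. The coding sequence of Ppp3ca was 73.9% identical to that of Ppp3cb and 72.8% identical to that of Ppp3cc over the aligned bases. The longest stretch of identical bases was 20 with Ppp3cb and 23 with Ppp3cc. Of 4786 distinct words of 50 bases in the coding transcripts of Ppp3ca, 0 occurred on either strand of an annotated transcript of another gene.

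Ppp3ca stood at 55.7, 42.3 and 50.2 FPKM in Mtor CKO libraries 1, 2 and 3. In WT libraries 1, 2 and 3 it stood at 15.1, 13.9 and 22.5 FPKM. The lowest Mtor CKO library (replicate 2) was 1.88 times the highest WT library (replicate 3), so the genotypes did not overlap. In the table as a whole, all 3 Mtor CKO libraries lay above all 3 WT libraries in 14.5% of the 516 rows, and in 61.5% of the 122 rows that were higher in Mtor CKO.

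The mean of Ppp3ca was 17.2 ± 4.63 FPKM over the WT libraries and 49.4 ± 6.76 FPKM over the Mtor CKO libraries (SD, n = 3 each), a ratio of 2.88. Its log2 difference, taken as Mtor CKO minus WT between means of log2(FPKM + 1), was 1.49. With each library scaled to the same median of the table, it was 2.37. Across the 9 pairs of a Mtor CKO with a WT library, the FPKM ratio ran from 1.88 to 4.001. In the authors' deposited table the log2 fold was 1.52, with p = 0.00105 and a q-value of 0.0550. That q-value is above 0.05, the bound that 49.2% of the 516 rows met. In the authors' deposited table the q-values nearest to 0.05 were 0.0489 below it and 0.0510 above it. FPKM is a share of a library, and the RNA content of the eggs was not measured, so more Ppp3ca transcript per egg and less of other RNA cannot be told apart.

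**Figure D2:**
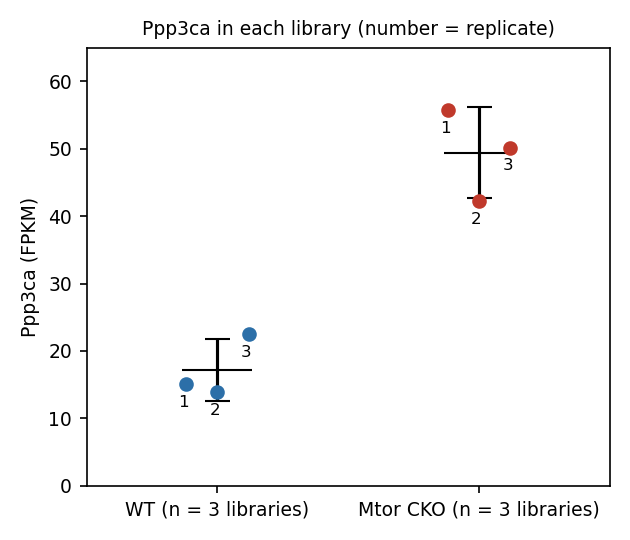
Ppp3ca in FPKM (linear axis from 0) in each of the 3 WT and 3 Mtor CKO libraries. Points are libraries numbered by replicate, the long bar is the mean and the whiskers are 1 SD. The Mtor CKO libraries sit between 42.3 and 55.7 FPKM and the WT libraries between 13.9 and 22.5 FPKM.

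The replicates of Ppp3ca were closer together than those of most listed genes. The coefficient of variation was 13.7% in Mtor CKO and 27.0% in WT, and the highest library exceeded the lowest by 1.32 times in Mtor CKO and 1.61 times in WT. The pooled SD of log2(FPKM + 1) within a genotype was 0.28, where the median was 0.46 over the 471 genes with at least 1 FPKM in at least 3 libraries. Among these, 84 genes (17.8%) had a smaller SD. Among the 118 genes within 1 log2 unit of its mean level, Ppp3ca included, 17 had a smaller SD and the median was 0.50.

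Among rows higher in Mtor CKO, the low place of Mtor CKO replicate 2 was shared by most, and the high place of WT replicate 3 by fewer. For a row lower in Mtor CKO, the Mtor CKO library nearest WT is the highest of its group. Mtor CKO replicate 2, the lowest of its group for Ppp3ca, was the Mtor CKO library nearest WT in 312 of the 471 genes (66.2%). It was the lowest Mtor CKO library in 79 of the 110 that were higher in Mtor CKO. WT replicate 3, the highest WT library for Ppp3ca, was the WT library nearest Mtor CKO in 29.9% of the 471 genes, behind WT replicate 1 with 54.1%. Among those 110 it was the highest WT library in 53, and WT replicate 1 in 31. Without Mtor CKO replicate 2 the log2 difference of Ppp3ca was 1.598, and without WT replicate 3 it was 1.69.

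By level, Ppp3ca stood in the upper part of the table in Mtor CKO eggs and lower down in WT. It ranked 45, 62 and 51 of 516 in the Mtor CKO libraries and 164, 199 and 138 in the WT libraries. Its FPKM was 14.8, 7.83 and 11.7 times the library's median over the table in Mtor CKO, and 2.05, 1.52 and 2.64 times that median in WT. Those medians also move with the selection of the rows, since 76.4% of them were lower in Mtor CKO. Among the 122 rows that were higher, the mean level of Ppp3ca ranked 28 in each genotype, above the median row at 14.4 FPKM across Mtor CKO, against 5.94 FPKM across WT.

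**Figure D3:**
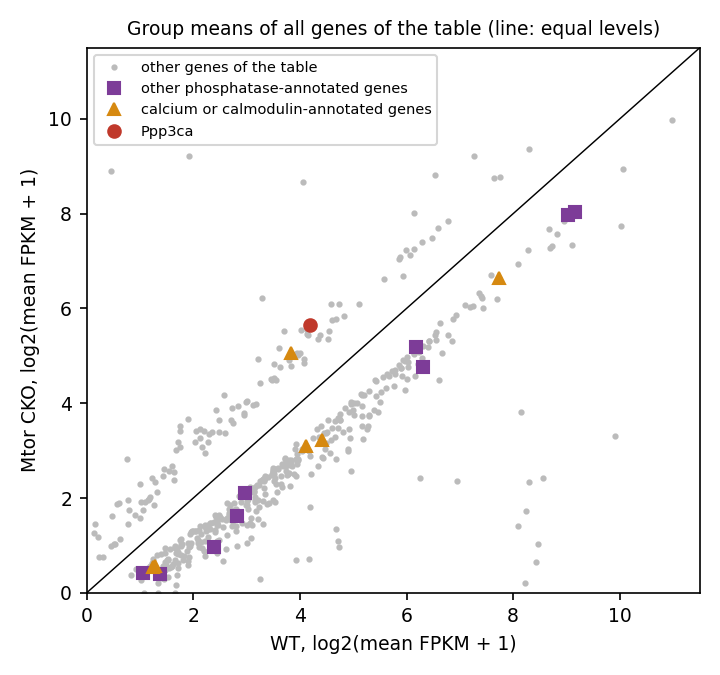
Group means of the 516 genes on the log2(mean FPKM + 1) scale, WT on the x axis and Mtor CKO on the y axis, with the line of equal levels. Ppp3ca (red) lies above the line at a WT mean of 17.2 and a Mtor CKO mean of 49.4 FPKM, and the other phosphatase-annotated genes (purple squares) lie below it.

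Ppp3ca has a long transcript for a row that was higher in Mtor CKO. Its longest annotated transcript, 4758 nucleotides, was exceeded in 19 of the 116 higher rows that matched an annotated gene. The median of those 116 rows was 2266 nucleotides, and that of the 372 matched lower rows was 3468 nucleotides, of which 97 exceeded Ppp3ca.

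Of the calcineurin subunits, regulators and anchors, Ppp3ca was the one subunit in the table. The list of 22 genes also held the other A subunits, the B subunits Ppp3r1 and Ppp3r2, the inhibitors of the Rcan family, Cabin1, calmodulin genes and anchoring proteins. Its other listed member was Akap6, an anchor for protein kinase A, known from muscle and brain. Akap6 stood at 0.644, 0.355 and 0.236 FPKM across Mtor CKO, against 1.31, 1.51 and 0.803 FPKM across WT, too low to be tested. Genes missing from the table have no value here, so whether the other subunits differed is not known.

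Limma, with Benjamini-Hochberg adjustment at 0.05, called 13.4% of the 471 genes higher and 60.3% lower in Mtor CKO, and the rows had been picked for this same contrast. That split of 63 higher and 284 lower became 88 higher and 3 lower of 478 genes when each library was scaled to the same median of the table, which moved the median log2 difference from -1.03 to -0.27. Scaling of this kind subtracts the common fall of selected rows by construction. When Mtor CKO replicate 1, Mtor CKO replicate 3, WT replicate 2 or WT replicate 3 was left out, 3 to 5 genes were called in all. None of the 31 called genes that are named here then passed, 29 of them being still tested without a WT library. Without Mtor CKO replicate 2, 383 of 464 genes were called, more than the 347 of 471 with all libraries. Calls given below without that library share this rise. In what follows, "fell" means past this threshold on the deposited scale.

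The lists of calcineurin targets, egg calcium and meiotic exit genes, and cortical granule genes gave 5 further rows. With Akap6, 6 of the 144 listed genes other than Ppp3ca were in the table and 5 were tested. Of these, 3 fell, and 0 rose (by limma, 0 with a higher mean had an unadjusted p under 0.05). Their median log2 difference was -1.07, beside -1.03 over the 471 genes. The 3 calls were lost without Mtor CKO replicate 1, Mtor CKO replicate 3, WT replicate 2 or WT replicate 3, and with libraries scaled to the same median.

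Kcnk18, a potassium channel that calcineurin activates by dephosphorylation, was the 1 of 26 listed targets with a row. Its values were 2.102, 11.8 and 4.07 FPKM across Mtor CKO, against 11.7, 17.5 and 10.6 FPKM across WT. Its Mtor CKO replicate 2 lay inside the WT range. The log2 difference was -1.26 (SE 0.53, limma adjusted p = 0.0555), and without Mtor CKO replicate 2 it was -1.82 (limma adjusted p = 0.0128). Without Mtor CKO replicate 1 it was -0.80 (limma adjusted p = 0.172).

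Of the 70 genes for the egg's calcium signal and the exit from meiosis, Plk1 and Mastl were in the table, and both fell. Plk1, a mitotic kinase that in Xenopus eggs helps to destroy the inhibitor holding metaphase arrest, was at 13.9, 45.4 and 19.5 FPKM across Mtor CKO, against 46.1, 84.6 and 62.1 FPKM across WT. Its groups did not overlap, although Mtor CKO replicate 2 came close to WT replicate 1. The log2 difference was -1.39 (limma adjusted p = 0.0397). Mastl, the kinase whose activity restrains the phosphatase opposing CDK1, was at 36.9, 36.9 and 53.4 FPKM across Mtor CKO, against 59.9, 100.1 and 115 FPKM across WT, with a log2 difference of -1.07 (limma adjusted p = 0.0403). The calmodulin-dependent kinases, inositol trisphosphate receptors and anaphase-promoting complex genes on that list had no row.

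Of 30 cortical granule genes, Stx4a and Zp2 were in the table. Zp2, the egg coat protein cleaved by the granule protease after fertilisation, fell by 1.04 on the log2 scale, between a WT mean of 164 ± 17.9 FPKM and a Mtor CKO mean of 79.0 ± 5.57 FPKM (SD, n = 3; adjusted p = 0.0370, limma). Stx4a, a plasma membrane fusion protein, was at 38.7, 11.95 and 28.7 FPKM across Mtor CKO, against 9.25, 12.5 and 18.1 FPKM across WT. Mtor CKO replicate 2 again lay inside the WT range, and its log2 difference of 0.84 missed the threshold (adjusted p = 0.122, limma). Without that library it was 1.31 (limma adjusted p = 0.0194), and without Mtor CKO replicate 1 it was 0.50 (limma adjusted p = 0.344). The interval of Stx4a takes in 1 other protein-coding gene.

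Among other phosphatase genes, no row was higher in Mtor CKO. The terms for phosphatase activity and dephosphorylation that the table gives to Ppp3ca were shared by 7 other rows, a group put together after their values were known. All 7 were lower in the authors' deposited table, where 76.4% of the rows were lower. Limma tested 5 of them, of which 4 fell, beside 60.3% of the 471 genes, and their median log2 difference was -1.15, beside -1.03. In 57.4% of all rows the 3 Mtor CKO libraries lay below the 3 WT libraries, which is the background for the overlaps given next.

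Dusp7, a phosphatase of MAP kinases, was at 146, 422 and 216 FPKM across Mtor CKO, against 571, 663 and 472 FPKM across WT (log2 difference -1.25, limma adjusted p = 0.0407). Ptp4a2, a membrane-bound tyrosine phosphatase, was at 132, 357 and 263 FPKM across Mtor CKO, against 438, 627 and 502 FPKM across WT (log2 difference -1.15, limma adjusted p = 0.0425). For both, Mtor CKO replicate 2 was the library nearest WT and the groups did not overlap. Ssh1, which activates the actin-severing protein cofilin, fell from a mean of 6.03 ± 2.45 to 2.06 ± 1.63 FPKM (SD, n = 3; adjusted p = 0.0403, limma). The log2 difference of Dusp18, -0.94, missed the threshold (adjusted p = 0.0512, limma), and without Mtor CKO replicate 2 it was -1.26 (limma adjusted p = 0.0164). Without Mtor CKO replicate 1 it was -0.79 (limma adjusted p = 0.132). Ppef2, a phosphatase with EF-hand calcium-binding domains, and Pdp2, a pyruvate dehydrogenase phosphatase, had means of at most 0.343 FPKM in the Mtor CKO libraries and were too low to be tested.

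Dlgap5, known as a microtubule-binding protein of the spindle, carries a phosphatase term in the table. It fell by 0.98 on the log2 scale, with means of 71.4 ± 8.90 FPKM over WT libraries and 35.5 ± 1.71 FPKM over Mtor CKO libraries (SD, n = 3; adjusted p = 0.0374, limma). Its profile over the 6 libraries was the nearest to a mirror image of Ppp3ca, with the lowest Pearson r of log2(FPKM + 1) in the table, -0.996. Both genes were split by genotype in rows picked for that contrast, so this r is a description only. Rows whose symbols name phosphatase subunits added Ppp1r9a and Ppp1r10, anchors of protein phosphatase 1 in the cytoskeleton and the nucleus. Both fell, Ppp1r9a by 1.37 and Ppp1r10 by 1.55 in log2 units (adjusted p = 0.0362 and 0.0425, limma). With a pseudocount of 0.1, Ppp1r9a fell by 2.06 log2 units, from a mean of 4.25 to 0.960 FPKM. The libraries of Ppp1r10 overlapped between the genotypes, and its row joins more than 1 gene identifier.

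Of the rows annotated to calmodulin binding or calcium signalling and transport, 6 of 7 were lower in the authors' deposited table, beside 76.4% of all rows. Limma tested 6, of which 5 fell, Ppp1r9a among them, beside 60.3% of the 471 genes. Myh9, the heavy chain of a non-muscle myosin, was the exception. It was at 51.6, 8.55 and 37.4 FPKM across Mtor CKO, against 9.15, 10.5 and 20.1 FPKM across WT, so its Mtor CKO replicate 2 lay below every WT library, unlike that of Ppp3ca. Its log2 difference of 0.99 missed the threshold (adjusted p = 0.161, limma), and without Mtor CKO replicate 2 it was 1.74 (limma adjusted p = 0.0141). Without Mtor CKO replicate 1 it was 0.50 (limma adjusted p = 0.458). Ccdc109a, the mitochondrial calcium uniporter, fell from a mean of 213 ± 77.7 to 98.7 ± 37.2 FPKM (SD, n = 3; adjusted p = 0.0441, limma). Its interval takes in 1 other protein-coding gene. The secreted peptide gene Edn1 fell from a mean of 20.2 ± 1.59 to 8.29 ± 3.98 FPKM (SD, n = 3; adjusted p = 0.0373, limma). Cask, in an interval with 2 other protein-coding genes, fell by 1.01 log2 units. Myo1e, with a WT mean of 1.36 FPKM and a Mtor CKO mean of 0.464 FPKM, fell by 0.69 log2 units with a pseudocount of 1 and by 1.39 with 0.1. The calcium channel gene Pkd2, with a WT mean of 1.42 FPKM, was not tested.

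**Figure D4:**
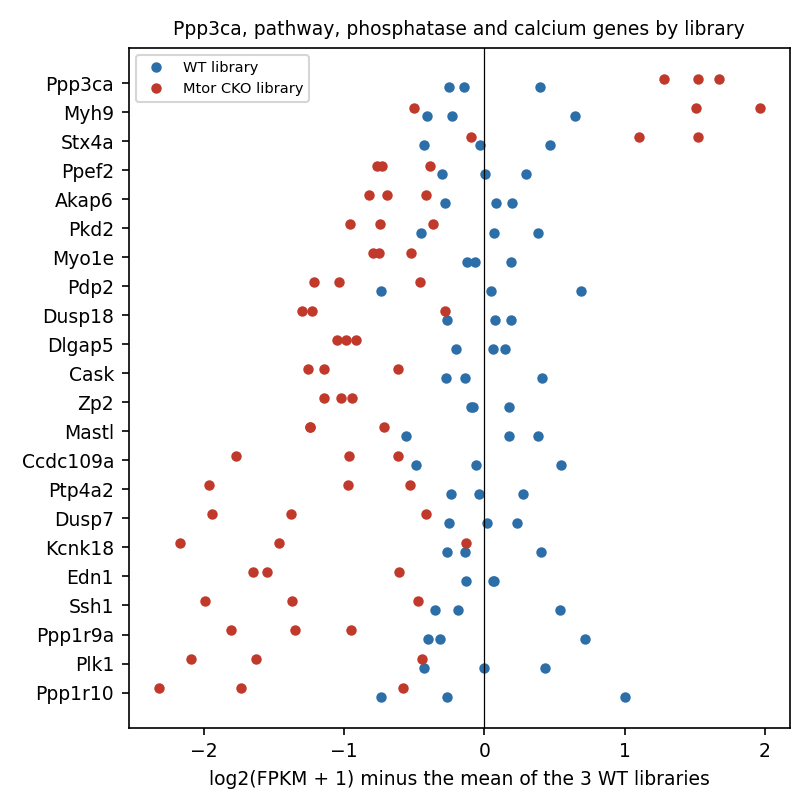
Log2(FPKM + 1) of each library minus the mean of the 3 WT libraries, for Ppp3ca and the rows from the pathway lists and the phosphatase, calmodulin and calcium annotations. Blue points are WT and red points Mtor CKO libraries. The 3 Mtor CKO libraries of Ppp3ca all lie to the right of WT, and those of Myh9 and Stx4a have 1 library within or below the WT range.

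The 5 genes whose pattern was most like that of Ppp3ca were taken by Pearson r of log2(FPKM + 1) over the 6 libraries, among 305 other genes that averaged 5 FPKM or more in their higher genotype and had an established symbol. The r values are a description: the libraries share their genotype contrast, and the rows were picked for it. Insm1, a zinc-finger transcription factor known from neuroendocrine cells, had r = 0.991 and stood at 32.0, 20.8 and 29.8 FPKM across Mtor CKO, against 8.84, 8.34 and 14.1 FPKM across WT. Serf1, a small EDRK-rich factor, had r = 0.965, and the secreted glycoprotein gene Olfm1 had r = 0.964. D14Ertd668e, described in the table as a PHD finger protein, had r = 0.958, and the linker histone gene Hist1h1a had r = 0.945.

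In 4 of these 5 genes Mtor CKO replicate 2 was the lowest of its group, and in 4 WT replicate 3 was the highest of its group, as for Ppp3ca. A shared order follows from the choice, since these genes were picked for likeness over the same libraries. Among the 110 tested higher rows, Mtor CKO replicate 2 was the lowest of its group in 79 and WT replicate 3 the highest in 53. Their log2 differences ran from 1.09 for D14Ertd668e to 1.33 for Insm1, each below the 1.49 of Ppp3ca. Over all other rows of the table, 30 had r of at least 0.9 with Ppp3ca, and all 30 were higher in Mtor CKO. That direction follows from so high an r with a gene whose libraries are split by genotype.

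**Figure D5:**
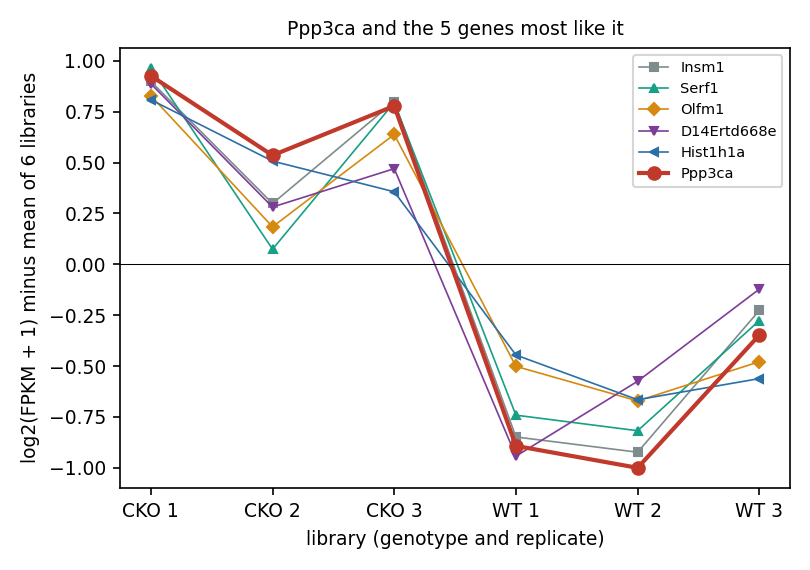
Log2(FPKM + 1) minus the mean of the 6 libraries, for Ppp3ca (thick red line) and the 5 genes most like it, by library. The lines join libraries for reading only. All 6 genes are above 0 in Mtor CKO and below 0 in WT, and Ppp3ca has r from 0.945 to 0.991 with the others.

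By size of difference, Ppp3ca ranked 7 of 72 among the higher genes that met the same bounds on level and symbol. Without those bounds, 11 tested rows had a larger log2 difference. In the authors' deposited table its log2 fold ranked 38 and its p-value 55 among the 122 higher rows. Within the bounds, next above it were Vault, a vault RNA, at 1.501, Plekha4 at 1.57 and the RING-finger gene Cgrrf1 at 1.68. Next below it were Prm2, a protamine that packs sperm DNA, at 1.46, the nuclear RNA 7SK at 1.44 and the ubiquitin-conjugating enzyme gene Ube2w at 1.43, all on the log2(FPKM + 1) scale. The steps between these neighbours were smaller than the SD of 0.28 of Ppp3ca within a genotype. By ratio of means Prm2, 7SK and Ube2w stood above Ppp3ca, at 4.29, 3.03 and 2.93 beside 2.88. Vault and Prm2 had uneven replicates. Vault was at 434, 113 and 1231 FPKM across Mtor CKO, against 75.4, 146 and 239 FPKM across WT, and Prm2 was at 17.1, 2.47 and 15.6 FPKM across Mtor CKO, against 3.25, 1.87 and 3.08 FPKM across WT.

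The genes next to Ppp3ca in mean level, among the 306 genes within the same bounds (Ppp3ca included), were not the same in the 2 genotypes. In Mtor CKO, those just above its 49.4 FPKM were Nlrp4g at 50.6, the neuropeptide gene Nmu at 52.9 and Gpn1 at 54.0 FPKM, and those just below were 7SK, Tmem134 and the joint row of Atn1 and Grcc10, from 46.0 to 45.0 FPKM. In WT, those just above its 17.2 FPKM were Tceal8, Mapk1ip1l and the kinesin gene Kifc1, from 17.2 to 17.4 FPKM, and those just below were Gbf1, Plek and Ahnak, from 17.1 to 16.7 FPKM. Of these 6 WT neighbours, 5 had lower means in Mtor CKO, beside 76.4% of all rows lower in the authors' deposited table. The scaffold gene Ahnak was at 42.1 FPKM in Mtor CKO. Some of these places rested on 1 library. Without WT replicate 1 the WT mean of Tceal8 was 4.94 FPKM, and without WT replicate 3 that of Plek was 7.28 FPKM. In Mtor CKO, the mean of the Atn1 and Grcc10 row was 14.99 FPKM without replicate 3, and that of 7SK was 29.3 FPKM without replicate 1.

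Markers of other cells were sparse in the table. Of 22 oocyte markers, Nlrp5 and Zp2 had rows, and their summed level was 234 to 253 FPKM in Mtor CKO and 450 to 906 FPKM in WT. The others had no row, so the label could be checked against these alone. Of 15 oviduct epithelium markers, Krt7 had a row, at 7.81, 4.23 and 10.1 FPKM across Mtor CKO, against 3.59, 2.45 and 4.40 FPKM across WT, and it moved with Ppp3ca (r = 0.859 over the 6 libraries). Krt7 had a log2 difference of 0.86, which missed the threshold (adjusted p = 0.0685, limma). It passed without Mtor CKO replicate 2, at 1.17 (limma adjusted p = 0.0217), and with libraries scaled to the same median, at 1.62 (limma adjusted p = 0.0389). With the replicate number as a block it also passed (limma adjusted p = 0.0347), and its q-value in the authors' deposited table was 0.0433. Without Mtor CKO replicate 1 its log2 difference was 0.79 (limma adjusted p = 0.140). Of 21 cumulus and granulosa markers, Mro and Vcan had rows. Their summed level was 1.68 to 3.15 FPKM in Mtor CKO and 4.504 to 9.86 FPKM in WT, opposite to Ppp3ca. Vcan rested mainly on WT replicate 1, where it reached 4.33 FPKM, beside 0.245 FPKM for WT replicate 2. Its value was 0 for WT replicate 3, as it was for each Mtor CKO replicate. Mro alone ranged from 4.504 to 6.06 FPKM across WT, above its highest Mtor CKO value of 3.15 FPKM. Of 18 blood and immune markers, 0 had a row. The part of other cells in the level of Ppp3ca was not tested.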

How the data were processed

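The deposited table gives FPKM values for 6 libraries, 3 per genotype. Per the submitters' processing notes, the authors used TopHat2 2.0.8b, Cufflinks 2.1.1 and Cuffdiff with mm10, and deposited an FPKM per library and per group. Each deposited row also carries the authors' log2 fold, p-value and q-value. Per the labels' protocols, cDNA was amplified by 17 cycles of PCR. The column headed WT against CKO holds the log2 of CKO over WT, as the deposited group FPKM of Ppp3ca shows. The table holds no read counts, so depth and counting error are unknown. Starts in the table count from 0 and were raised by 1.

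Genes and lists were chosen with earlier results of these data known. Values of log2(FPKM + 1) were tested with limma 3.58.1 (R 4.3.3), using an empirical Bayes trend over the 471 rows with at least 1 FPKM in at least 3 libraries, with Benjamini-Hochberg adjustment at 0.05. The code was tested on simulated data with the same spread for every gene and no selection of rows. It was not tested on rows selected as these were. No p-value from this fit is given for Ppp3ca. The genes named were Ppp3ca, every list member in the table, rows named Ppp or Ppm plus a digit, the 5 most like Ppp3ca, and the 3 neighbours on each side in log2 difference and in mean FPKM per genotype. Rows that share annotation terms with Ppp3ca were added after the data were seen. Transcripts are from GENCODE M21 (GRCm38, the same assembly as mm10), where 488 of 516 rows matched by identifier. Paralog coding sequences were aligned globally. Alternatives were another pseudocount, other filters, scaling, the group FPKM, a replicate block and leaving out each library.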

Additional observations from a re-analysis of the deposited data

How the results depend on the processing

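The log2 difference of Ppp3ca, 1.49, kept its direction under each setting run. Because its genotypes did not overlap, no omission of a library, pseudocount or kind of mean could have reversed that direction. The log2 difference was 1.54 with a pseudocount of 0.1, 1.53 from arithmetic means and 1.52 from the authors' deposited group FPKM. It was 1.37 to 1.69 when each library was left out in turn. With each library scaled to the same median of the table it moved to 2.37. That scaling subtracts the common fall of the selected rows by construction. Under it 0 of the pathway genes were called lower, in place of 3, and the log2 difference of Nlrp4g, which had not passed, turned from -0.87 to 0.0243. Over the omissions of a library, 0 to 4 pathway genes were called lower and 0 to 1 higher. Of 31 named genes called by limma, 31 were still called with a pseudocount of 0.1, 30 with no filter on level, 12 with the scaled libraries, 29 of the 29 still tested where a genotype had to average 5 FPKM or more, 30 without CKO replicate 2 and 16 without WT replicate 1.

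Replicate numbers gave no firm pairing. The correlation of deviations between same-numbered libraries was 0.115, 0.240 and 0.0843. Between libraries of different number it ran from -0.218 to 0.118 and was negative in every pair but 1. That pair was CKO replicate 1 with WT replicate 3 (0.118), where CKO replicate 1 correlated better than with its own number. Deviations within a genotype cancel for each gene, so these correlations are tied, and positive ones bring negative ones by construction. The replicate block left the log2 difference of Ppp3ca at 1.49, with 1.82, 1.54 and 1.13 in the 3 same-numbered pairs (SD 0.35). With the block, 405 of 471 genes were called in place of 347, with 4 pathway genes lower in place of 3 and 0 higher. With 3 libraries per genotype and no read counts, differences near the spread between libraries were not detectable.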
